A study of Mus musculus with 22 samples.

Results

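The clustered replication-dependent histone genes were followed through peak lists of 2 DNA-binding factors, CREB1 and C/EBP beta, in mouse kidney cells. Members were all protein-coding genes of the mm10 RefSeq table named H2ac, H2bc, H3c or H4c plus a number, or H1f1 to H1f5. The rule gave 62 of 21631 protein-coding genes: 5 of the linker histone H1, 17 of H2A, 16 of H2B, 12 of H3 and 12 of H4. A member counted as having a peak when a peak centre lay within 1000 bp of either end of the gene. The members were chosen by name, and those described in detail were selected on the called peak positions in these same lists, so the peak counts are a description with no test.

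Chromatin immunoprecipitation and sequencing was done in mpkCCD cells, clone 11, a line of mouse cortical collecting duct cells at passages 6 to 12. Confluent cells on permeable supports were kept without serum and hormones for 24 h, then given vehicle or 0.1 nM dDAVP, a V2-selective vasopressin analog, for 30 min. The labels give 4 CREB1 samples and 2 C/EBP beta samples per treatment, 12 in all, beside 10 input libraries without antibody, of which 2 served both antibodies. Each antibody and treatment has 1 peak list, of 785 peaks (CREB1, vehicle), 406 (CREB1, dDAVP), 209 (C/EBP beta, vehicle) and 2401 (C/EBP beta, dDAVP), so no value below has an error over replicates, and how deeply the libraries were sequenced is unknown. A site missing from a list may still have been bound.

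Core histones H2A, H2B, H3 and H4 form the nucleosome, and H1 binds the linker DNA between nucleosomes. The clustered genes are transcribed in S phase, when new DNA must be packaged, and their mRNAs end in a stem-loop in place of a poly(A) tail. CREB1 is a leucine zipper factor that binds the cAMP response element (CRE), whose full palindromic form is TGACGTCA. C/EBP beta is another leucine zipper factor and binds elements of the type TTGCNNAA, where N is any base.

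The members sit in a few dense arrays. On chromosome 13 there were 52, from 21715711 to 23934913, in 4 groups parted by more than 100000 bp, with 17, 5, 28 and 2 genes. On chromosome 3 there were 10, from 96219885 to 96270192, in 50.3 kb. In 9 places an H2A and an H2B gene faced away from a shared stretch of 163 to 280 bp (median 179 bp), so that both starts lie within 1000 bp of any peak there. Strand was known for the 57 members with an entry in the RefSeq promoter table. H3c1, H3c7, H4c14, H2bc4 and H2bc21 had none.

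The sequences below are the 250 bases before the annotated start of the members at which the results turn, from RefSeq (GRCm38.p6, the mm10 assembly), written 5′ to 3′ on the strand of the gene. The first pair lay under CREB1 peaks, and capitals mark the full CRE. H4c1, which encodes histone H4, is shown from chr13:23761250-23761499 on the minus strand. H2bc11, an H2B gene, is shown from chr13:22042948-22043197 on the plus strand. H2ac11, the H2A gene that faces away from it, uses largely the same stretch on the other strand.
H4c1: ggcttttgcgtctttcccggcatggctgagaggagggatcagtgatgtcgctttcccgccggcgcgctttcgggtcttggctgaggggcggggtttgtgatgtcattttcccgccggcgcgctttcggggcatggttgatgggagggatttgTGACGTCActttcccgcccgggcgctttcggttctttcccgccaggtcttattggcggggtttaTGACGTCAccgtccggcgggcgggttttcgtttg
H2bc11: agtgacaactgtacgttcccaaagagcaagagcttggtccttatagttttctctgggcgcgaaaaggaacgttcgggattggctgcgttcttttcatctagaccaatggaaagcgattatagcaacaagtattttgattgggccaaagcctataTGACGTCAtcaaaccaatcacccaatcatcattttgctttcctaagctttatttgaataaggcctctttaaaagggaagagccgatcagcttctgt

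For comparison, 2 further H4 genes had no peak of either factor. H4c8, from chr13:23530794-23531043 on the plus strand, holds the full CRE in capitals and was chosen after this was seen. H4c11, from chr13:21734784-21735033 on the plus strand, is the first H4 member without a peak by coordinate and holds no full CRE.
H4c8: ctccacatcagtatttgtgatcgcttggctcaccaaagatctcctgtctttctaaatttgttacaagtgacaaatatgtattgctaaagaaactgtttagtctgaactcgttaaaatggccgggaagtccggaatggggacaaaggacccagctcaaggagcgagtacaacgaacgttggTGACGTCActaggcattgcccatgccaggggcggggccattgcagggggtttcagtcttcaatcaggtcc
H4c11: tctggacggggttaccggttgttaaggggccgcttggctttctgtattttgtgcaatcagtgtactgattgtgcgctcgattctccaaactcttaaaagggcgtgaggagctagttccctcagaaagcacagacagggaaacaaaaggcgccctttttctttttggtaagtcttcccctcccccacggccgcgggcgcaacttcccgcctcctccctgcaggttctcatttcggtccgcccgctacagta

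The next pair lay under C/EBP beta peaks after dDAVP. In H2bc9, an H2B gene shown from chr13:23543445-23543694 on the minus strand, capitals mark the match to TTGCNNAA, which reads as its reverse complement. In H2ac18, an H2A gene shown from chr3:96245247-96245496 on the plus strand, capitals mark 209 bases of a run that is identical at its neighbour H2ac19.
H2bc9: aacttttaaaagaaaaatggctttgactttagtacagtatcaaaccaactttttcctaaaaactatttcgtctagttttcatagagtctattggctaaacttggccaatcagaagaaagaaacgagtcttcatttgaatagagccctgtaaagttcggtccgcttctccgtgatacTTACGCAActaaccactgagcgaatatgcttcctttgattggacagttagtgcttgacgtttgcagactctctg
H2ac18: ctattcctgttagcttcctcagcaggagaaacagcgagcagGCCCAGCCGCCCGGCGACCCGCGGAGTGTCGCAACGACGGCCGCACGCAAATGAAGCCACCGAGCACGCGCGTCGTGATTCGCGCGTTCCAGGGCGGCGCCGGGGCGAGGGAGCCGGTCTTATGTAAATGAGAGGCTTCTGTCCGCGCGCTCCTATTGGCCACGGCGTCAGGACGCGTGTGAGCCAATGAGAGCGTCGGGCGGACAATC

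Of the 62 members, 10 had a peak in at least 1 list and 52 had none in any. No H1 gene had a peak. The others were 3 of 17 H2A genes, 3 of 16 H2B genes, 2 of 12 H3 genes and 2 of 12 H4 genes. Among all protein-coding genes, 3.94% (CREB1, vehicle), 2.11% (CREB1, dDAVP), 0.254% (C/EBP beta, vehicle) and 2.51% (C/EBP beta, dDAVP) had a peak. Their share with a peak in any list was not counted. At such shares 0 of 5 H1 genes is no result about that family. No member had a peak of both factors. Of the CREB1 peaks at members, 0 of 2 overlapped a C/EBP beta peak after vehicle and 0 of 1 after dDAVP. How often the 2 factors overlapped over all peaks was not counted. So few peaks, beside the shares above, show nothing particular to histone genes. The members nearest to a CREB1 vehicle peak without counting as having one were H4c9 (1728 bp), H1f1 (2242 bp), H2bc12 (6770 bp), H2ac12 (7447 bp) and H3c2 (8586 bp), 1 per family. For C/EBP beta after dDAVP they were H3c15 (1385 bp), H2ac13 (1476.5 bp), H2bc18 (6267 bp), H4c6 (7771 bp) and H1f3 (11517 bp). The H1f1 distance is to the wide CREB1 site at H4c1.

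**Figure D1:**
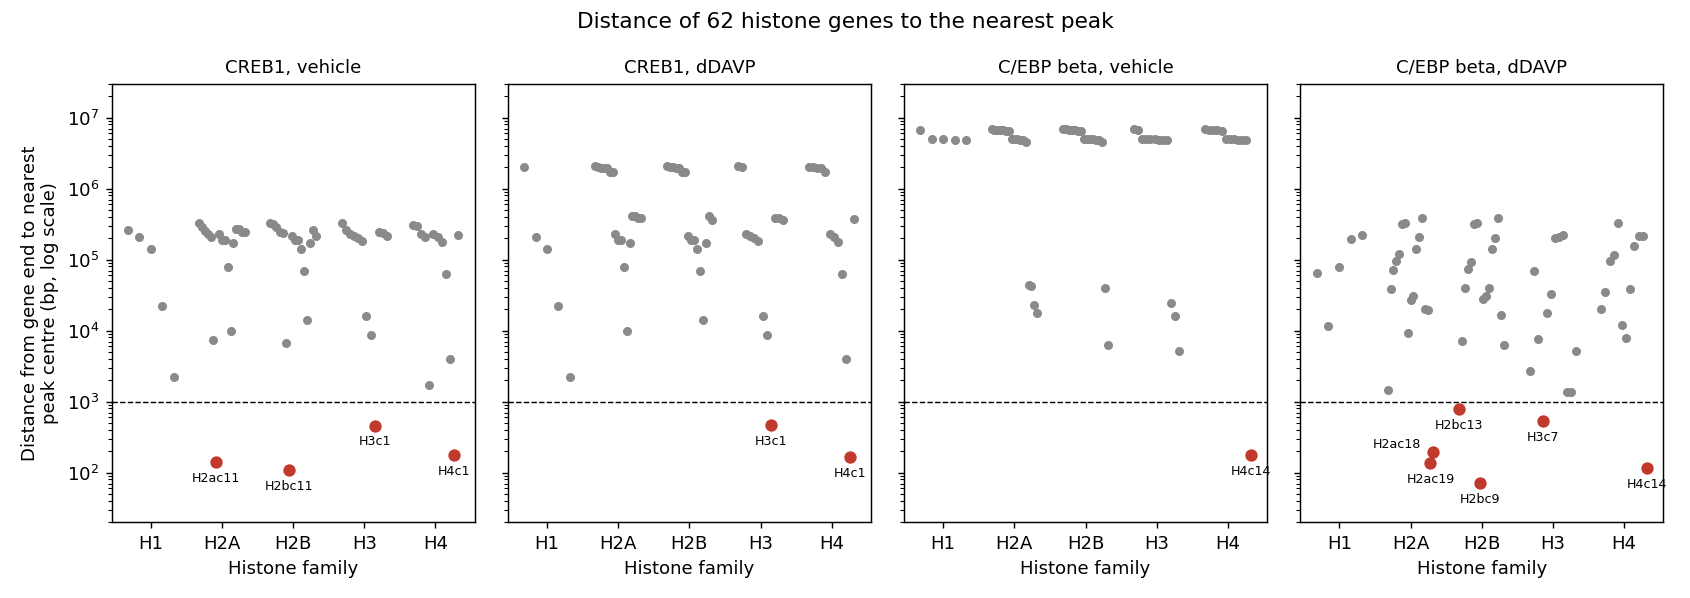
Distance from the nearer gene end to the nearest peak centre (bp, log scale) for each of the 62 histone genes, by family, in each of the 4 peak lists. Red points with names are within 1000 bp (dashed line): 4, 2, 1 and 6 genes from left to right.

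After vehicle, 4 of 62 members had a CREB1 peak (6.45%), where 3.94% of all protein-coding genes had one. After dDAVP 2 of 62 did (3.23%), against 2.11% of all genes. These few genes rest on fewer peaks still: 2 CREB1 peaks after vehicle and 1 after dDAVP, each beside a pair of members. All lay on chromosome 13, and none of the 52 other protein-coding genes between the first and last member there had a peak of either factor in any list. With 52 genes and all-gene shares of at most 3.94% per list, this is no contrast with the members.

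The wider site lay between H4c1 and H3c1, an H3 gene, which are parted by 635 bp. The CREB1 peak spanned chr13:23761130-23761722 after vehicle and chr13:23761190-23761641 after dDAVP. Its width was 593 bp after vehicle, rank 4 of 785 in that list, where the median width was 290 bp. After dDAVP it was 452 bp, rank 1 of 406, where the median was 250.5 bp. Its centre lay 177 bp before the annotated start of H4c1 after vehicle and 166.5 bp before it after dDAVP. From an end of H3c1 it lay 459 bp and 469.5 bp. The dDAVP peak was wholly inside the vehicle peak, covered 76.2% of it, and the centres differed by 10.5 bp. The site was thus found in both treatments at nearly the same place. Over the whole list, 398 of 406 dDAVP peaks overlapped a vehicle peak, so being shared was usual for a CREB1 dDAVP peak.

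The H4c1 stretch printed above lies entirely inside both peaks and holds 2 full CREs. Counted from the annotated start, their first bases are at -98 and -34. Their middles were 82.5 bp and 146.5 bp from the vehicle peak centre, and 72.0 bp and 136 bp from the dDAVP centre. Over all protein-coding promoters, 159 full CREs lay inside a CREB1 vehicle peak, at a median of 19.5 bp from the centre (quartiles 9.50 and 30.8 bp), and the value of 146.5 bp at H4c1 was the largest of them. The peak at H4c1 was therefore wide and placed to the side of both full CREs. The printed letters also hold tgatgtca, which differs from the full CRE in a single base. It lies before both full CREs and nearer to both peak centres than they do, so a CRE-like element near the centre is not absent. The H3c1 side of it was not searched. An annotated start need not be the start used in these cells: a TATAAA match at H4c1 begins 42 bases after it.

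**Figure D2:**
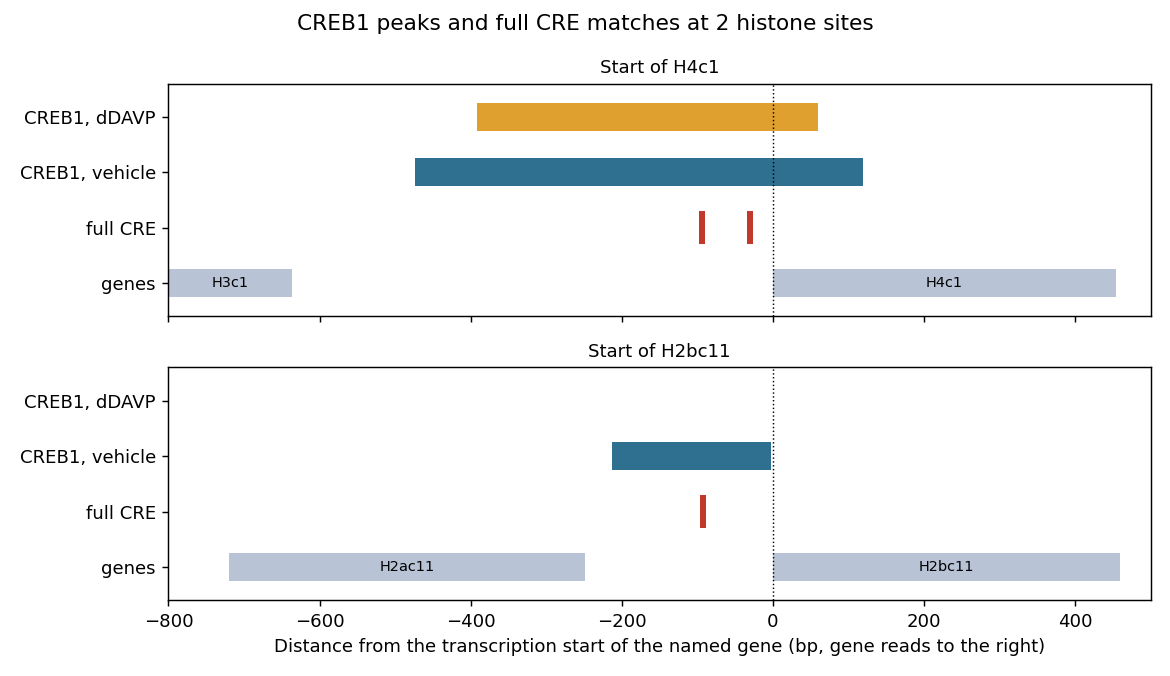
CREB1 peaks (bars), full CRE matches (red) and gene bodies (grey) around the annotated starts of H4c1 and H2bc11, by distance from the start in bp with the named gene reading to the right. H4c1 has a peak in both treatments over 2 elements, and H2bc11 has 1 peak, after vehicle, over 1 element; H3c1 is drawn only to the left edge.

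The other CREB1 site was narrow and stood in the 248 bp between H2ac11 and H2bc11, chr13:22042985-22043195. It was in the vehicle list alone, with a width of 211 bp, rank 687 of 785. Its centre lay 108 bp before the start of H2bc11 and 141 bp before that of H2ac11, inside the shared stretch and in neither gene. It was the single CREB1 peak among the 9 facing H2A and H2B pairs. A full CRE lay in it, 15.5 bp from the peak centre, with its first base at -96 from H2bc11 and at -160 from H2ac11. At this site the full CRE lay closer to the centre than the median full CRE over all promoters, unlike the full CREs at H4c1. Over the whole list, 397 of 785 vehicle peaks overlapped a dDAVP peak, so a vehicle peak missing after dDAVP was common in general.

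The full CRE was then counted in all promoter windows (250 bases before to 50 after the start, both strands). It was found in 4 of 57 histone members (7.02%) and in 445 of 17274 protein-coding genes with a window (2.58%). Members were chosen with earlier results of these data known, and CREB1 peaks were more frequent at genes with the full CRE. The share among members is therefore not independent of that choice. The 4 members were H4c1, H4c8, H2ac11 and H2bc11, of which H2ac11 and H2bc11 hold the same 8 bases. The 3 members with a CREB1 peak and a promoter entry all had the full CRE, and 1 of 54 members without a CREB1 peak did, H4c8. Of these 3, H2ac11 and H2bc11 lie beside the same peak. H4c8 was 229948 bp from the nearest CREB1 vehicle peak. Among all genes with the full CRE, 164 of 445 had a CREB1 peak after vehicle (36.9%) and 96 of 445 after dDAVP (21.6%), against 3.35% and 1.74% of genes without it. Among members with it these were 3 of 4 and 1 of 4, and 0 of 53 members without it had a CREB1 peak in either list. The counts are small, and the match describes these letters only.

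H4c1 was also 1 of 13 protein-coding genes with at least 2 full CREs in a single window. Of these 13, a CREB1 peak was at 8 after vehicle (61.5%) and at 7 after dDAVP (53.8%), with median widths of 409 bp and 380 bp. H4c1 itself, with its wide peaks, is counted in these shares and medians, and values without it were not computed. For the 432 genes with a single full CRE the shares were 36.1% and 20.6%, with median widths of 285.5 bp and 248 bp. With any base allowed in the fourth place (TGANGTCA, searched after the letters were seen), H4c1 had 3 matches and was 1 of 7 genes with at least 3 (0.0405% of 17274), while 9.25% of genes had at least 1. Among members 5 of 57 had at least 1 (H4c1, H4c8, H2ac11, H2bc11 and H3c11), a share close to that of all genes.

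The shorter CRE core TGACG, which every full CRE contains, was common in histone promoters. It was in 28 of 57 members (49.1%) and 26.5% of all genes. Facing pairs can share a match, as H2ac13 and H2bc13 do, and it is then counted for both genes. Of the 28, 3 had a CREB1 peak after vehicle (H4c1, H2ac11 and H2bc11) and 1 after dDAVP (H4c1). All 3 are among the 4 members with the full form, and the remaining one of the 4, H4c8, had no peak. In all genes 12.9% of those with the core had a CREB1 vehicle peak, against 1.06% of those without. The core was not particular to members with a CREB1 peak. After dDAVP 4 of the 28 had a C/EBP beta peak and 0 of 29 members without the core did. In all genes these shares were 4.12% and 1.95%. By family the core was in 0 of 5 H1, 11 of 17 H2A, 10 of 14 H2B, 2 of 10 H3 and 5 of 11 H4 members.

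C/EBP beta peaks stood at other members. After vehicle 1 of 62 had a peak (1.61%, against 0.254% of all genes), and after dDAVP 6 of 62 did (9.68%, against 2.51%). The members after dDAVP were H4c14, H2ac19, H2ac18, H2bc9, H3c7 and H2bc13, at 5 peaks. On chromosome 3 these were 3 of 10 members, and on chromosome 13 they were 3 of 52. The dDAVP list is much the longer, so 1 gene against 6 does not compare the treatments.

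The deposited scores, the authors' own value per peak on an unstated scale, placed all 5 dDAVP peaks high in their list. They ran from 446 to 1743 with a median of 748, where the list median was 197, its upper quartile 364, and the median of the 476 peaks at gene ends 216.5. Peak widths were 309 to 399 bp, against a list median of 266 bp. All 5 were thus above the upper quartile of score.

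H4c14, an H4 gene on chromosome 3, had the peak with the highest score among members and the only one found in both treatments. It spanned chr3:96263379-96263612 after vehicle, with a score of 192 (rank 62 of 209). After dDAVP it spanned chr3:96263234-96263632, with a score of 1743 (rank 36 of 2401). The centre lay 178.5 bp and 116 bp beyond the gene end with the higher coordinate, 96263317, outside the gene. The vehicle peak was wholly inside the dDAVP peak and made up 58.6% of it. Scores of the 2 lists are not known to be comparable, and all 209 vehicle peaks overlapped a dDAVP peak, so that being shared was usual for a vehicle peak.

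H2ac18 and H2ac19 are neighbouring H2A genes that face away from each other, and each had a C/EBP beta peak before its start after dDAVP. The H2ac19 peak spanned chr3:96240346-96240678, with a score of 847 (rank 187) and a centre 138 bp before the start. The H2ac18 peak spanned chr3:96245115-96245483, with a score of 714 (rank 245) and a centre 198 bp before the start. Within their promoter windows both share an identical run of 219 bases, of which 196 lie in the H2ac18 peak and 198 in the H2ac19 peak. Counted from the start of that run, the peak centre lay at 11 bases for H2ac18 and 31 bases for H2ac19. The 2 centres are thus nearer to each other along the shared letters than their distances from the annotated starts show. The run ends at the edge of the H2ac19 window and may be longer, since letters outside the windows were not compared. Reads from that run cannot be assigned to one gene by sequence, and how such reads were treated was not stated in any source used. Whether the peaks at these 2 genes are separate measurements was not tested. Of the 57 members with an entry, 11 shared a run of at least 50 bases with another member's window elsewhere. H2ac18 and H2ac19 were the only ones of the 11 with a peak, and the longest such runs at H4c1, H2bc11, H2ac11, H2bc9 and H2bc13 were 11, 22, 22, 12 and 16 bases.

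The peak at H2bc9 spanned chr13:23543361-23543669, with a score of 748 (rank 223 of 2401). Its centre lay 71 bp before the start of H2bc9 and 537 bp from an end of H3c7, an H3 gene. The match to TTGCNNAA printed above begins at -74 and its middle was 0.5 bp from the peak centre. Over all promoters 101 such matches lay in a C/EBP beta dDAVP peak, at a median of 14 bp from the centre (quartiles 5.5 and 31 bp). The element at H2bc9 was thus almost exactly central.

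The peak nearest to H2bc13, another H2B gene, lay at the far end of the gene from its start. It spanned chr13:21714776-21715095, with a score of 446 (rank 464), and its centre was 775.5 bp past the gene end and 1247.5 bp after the start. Of the members with a peak it was the farthest inside 1000 bp in its list, and the nearest outside was H3c15 at 1385 bp. In the other lists the farthest inside and the nearest outside were H3c1 and H4c9 (459 and 1728 bp, CREB1 vehicle), H3c1 and H1f1 (469.5 and 2252.5 bp, CREB1 dDAVP), and H4c14 and H3c13 (178.5 and 5158.5 bp, C/EBP beta vehicle).

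**Figure D3:**
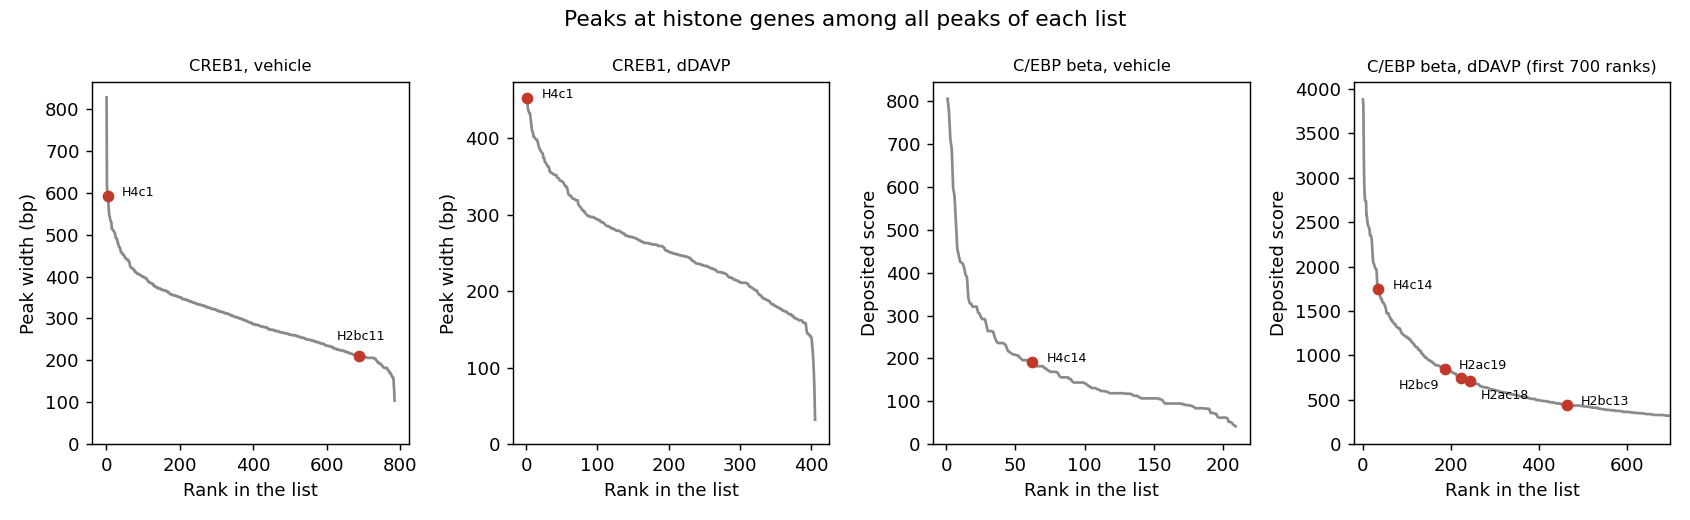
All peaks of each list in order of width (CREB1, bp) or deposited score (C/EBP beta), with the peaks at histone genes in red and named by the nearest member. The H4c1 peak is rank 4 and rank 1 of the CREB1 lists, the H2bc11 peak is rank 687, and the 5 C/EBP beta dDAVP peaks are between rank 36 and rank 464 of 2401.

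The C/EBP element TTGCNNAA was counted in the same windows. It was in 13 of 57 members (22.8%) and 11.8% of all genes. In H2bc14, H2bc6, H2ac6, H2bc3, H2ac4 and H2ac20 a match overlaps the octamer ATTTGCAT, which is counted below. Of these, H2bc3 and H2ac4 also hold a match apart from it. The facing genes H2ac7 and H2bc7 share the same match. How often such overlap occurs over all genes was not counted. Of the 4 members with a C/EBP beta peak and an entry, H2bc9 alone had it, as did 12 of 53 without such a peak, among them H2ac4, H2bc3, H4c2 and H4c11. In all genes with the element 5.40% had a C/EBP beta peak after dDAVP, against 2.14% of those without. H2ac18, H2ac19 and H2bc13 had none in their windows, which says only that these letters are not there. The H2bc13 window does not reach its peak, and the H2ac18 and H2ac19 windows cover only part of theirs.

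The elements usual for histone promoters were counted the same way. CCAAT, bound by NF-Y, was in 49 of 57 members (86.0%), including every H1, H2A, H2B and H3 member with an entry but 3 of 11 H4 members, against 42.7% of all genes. TATAAA, of the kind bound by the TATA-binding protein, was in 34 of 57 (59.6% against 14.9%). The octamer ATTTGCAT, bound by POU factors, was in 6 of 17 H2A and 7 of 14 H2B members and in no other family (22.8% of members against 1.92% of genes). The facing pairs H2ac12 and H2bc12, H2ac8 and H2bc8, and H2ac1 and H2bc1 each share the same octamer bases. Such a match is counted for both genes, also for the other motifs, so the windows are not independent. TTTGGCGC, a single spelling of the E2F element, was in 0 of 57 members and 0.735% of genes. Other spellings of it were not searched, so this does not show that histone promoters lack E2F elements. None of the 3 members with a CREB1 peak and an entry had the octamer, nor did any of the 4 with a C/EBP beta peak and an entry. At 22.8% of members, so few genes show nothing particular to those with a peak.

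**Figure D4:**
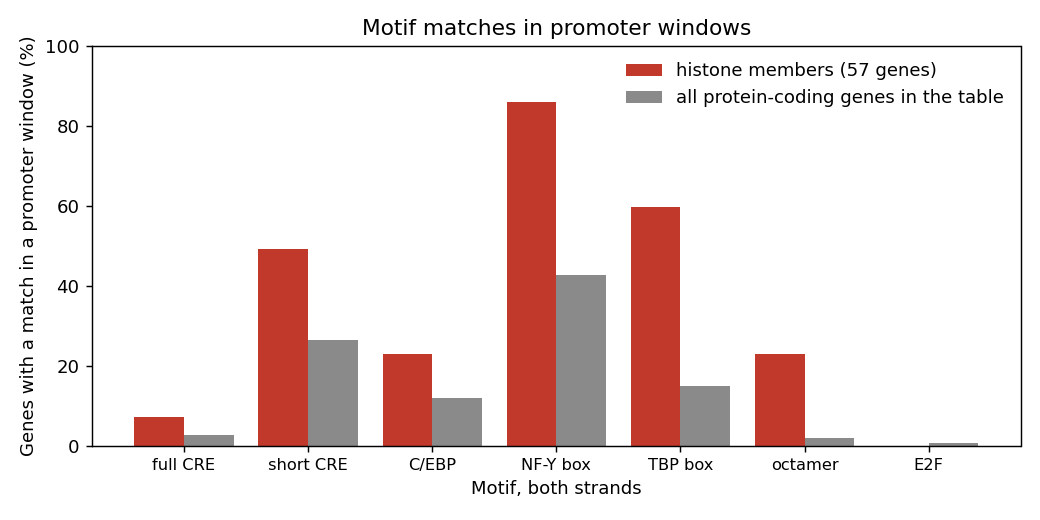
Share of genes (%, y axis) with at least 1 match on either strand of a 300 base promoter window, for the 57 histone members with an entry (red) and all 17274 protein-coding genes with one (grey), by motif (x axis). Short CRE is TGACG, NF-Y box is CCAAT, TBP box is TATAAA and E2F is the single spelling TTTGGCGC. Members exceed all genes for 6 of the 7 motifs, the exception being TTTGGCGC. A match shared by a facing pair is counted for both genes.

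Among the genes that make, process and chaperone histones, 3 of 28 had a CREB1 peak after vehicle (10.7%, beside 3.94% of all genes) and 1 of 28 after dDAVP (3.57%, beside 2.11%). The vehicle peaks were 59.5 bp from an end of Npat, the coactivator of clustered histone genes, and 55 bp from an end of Hinfp, a zinc finger factor of H4 promoters. The remaining one was 4.5 bp from an end of Ncbp2, a cap-binding subunit that acts in mRNA processing, which also had the dDAVP peak, at 22.5 bp. No C/EBP beta peak was at any of the 28.

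Histone genes outside the rule, most of them replication-independent variants, had no CREB1 peak: 0 of 17 in each list, where 3.94% and 2.11% of all genes had one. H2aj, an H2A variant gene, had a C/EBP beta peak in both lists, 776.5 bp from a gene end with a score of 131 after vehicle and 777 bp with a score of 1166 after dDAVP. It was 1 of 17 in each C/EBP beta list (5.88%), beside 0.254% of all genes after vehicle and 2.51% after dDAVP.

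Genes of DNA replication, active in the same phase of the cell cycle, had CREB1 peaks at 7 of 38 after vehicle (18.4%, beside 3.94% of all genes) and 5 of 38 after dDAVP (13.2%, beside 2.11%). Rfc4, Mcm5, Rrm1, Pcna and Ccna2 were in both, with centres at 36, 53.5, 110, 128 and 981.5 bp after vehicle. Gins2 and Cdc45 were in the vehicle list alone. C/EBP beta peaks were at 1 of 38 after vehicle, Mcm3 (2.63%, beside 0.254% of all genes). After dDAVP they were at 3 of 38 (7.89%, beside 2.51%), Mcm3 (score 1650), Gins1 (score 241) and Fen1 (score 168). Histone members with a CREB1 peak were 6.45% and 3.23% in these lists. The difference between the gene lists was not tested.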

How the data were processed

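Chromatin immunoprecipitation with antibodies to CREB1 and C/EBP beta was sequenced in mpkCCD cells after vehicle or dDAVP. The authors deposited 4 peak lists, 1 per antibody and treatment, with mm10 positions. BWA, SAMtools, MACS2 and bedtools are named without versions or roles, per the submitters' processing notes. How replicates became 1 list is not given in the sources used here. Also, the deposited C/EBP beta lists hold a score per peak. Their peak names mention replicate 1 only and the settings bw 300, dup 1 and q 0.01. Depth per sample is unknown.

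Positions are counted from 1. Genes came from the RefSeq table of GRCm38.p6 on 20 chromosomes, and starts, strands and letters from the RefSeq promoter table, which matched 57 of 62 members. A gene had a peak if either of its ends was within 1000 bp of a peak centre. Overlaps need 1 bp. The 7 motifs were searched on both strands. Lists and members were chosen with earlier results of these data known. Every member with a peak is named, as is the nearest member without one per family in the longer list of each factor. Protein sequences were planned and not used here. Promoters shown were to be those at the widest CREB1 vehicle peaks and the first member per family without a peak; the C/EBP beta promoters and H4c8 were added after their values were seen. No test was run, since each group has 1 list and no values per replicate. Counting and motif search were tested on simulated positions, with python 3.11.15 and pandas 2.3.3. Alternatives covered distance, start against either end, peak edge, nearest member, older gene names and the upper 50% of peaks.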

Additional observations from a re-analysis of the deposited data

How the results depend on the processing

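Of 38 alternatives for 6 counts, 28 left the count within 1.5 times and 10 did not. At 5000 bp the members with a peak were 7 (CREB1 vehicle), 4 (CREB1 dDAVP) and 10 (C/EBP beta dDAVP). Counting each peak for its nearest histone gene alone gave 2 for CREB1 vehicle and 1 for CREB1 dDAVP, because each of these peaks lies beside a pair of members. By the transcription start alone the counts were 1 for CREB1 dDAVP, 0 for C/EBP beta vehicle and 3 for C/EBP beta dDAVP: H3c1, H3c7 and H4c14 have no start in the table, and the peak at H2bc13 is past 1000 bp from its start. At 250 bp 1 member had a CREB1 dDAVP peak, H4c1. In the upper 50% of peaks by width 2 had a CREB1 vehicle peak, as the narrow H2bc11 peak drops out. The shared sites at H4c1 and H4c14 were found in all 3 alternatives each. No paired analysis was possible because each group has a single list with no values per replicate, and for the same reason no replicate could be left out. The unknown depth limits what an absent peak can show.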
